A study of Homo sapiens with 12 samples.

Results

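Kinesin family genes with a KIF or KIFC symbol comprised 42 of the 34688 gene rows in the expression table of CD133-sorted gastric cancer cell lines. Members were all genes whose symbol was KIF with a number, or KIFC1, KIFC2 or KIFC3, and they were read as 15 mitotic kinesins, 17 transport kinesins and 10 ciliary or other kinesins from their known roles. Cells of 3 established gastric cancer lines, KATO-III, SNU-216 and SNU-601, were stained with an antibody to CD133, a surface glycoprotein encoded by PROM1 and used as a stem cell marker, and sorted by fluorescence. The brightest 10% of cells formed the CD133+ fraction and the dimmest 6% the CD133- fraction, all without drug or gene manipulation, and total RNA of each fraction was hybridized to Illumina HT-12 v3 BeadChips. Each of the 6 populations had 2 arrays, 12 in all, and the series' design text names the second line SNU201 where the sample labels have SNU-216. Each line is a single line in culture, and nothing states that both arrays of a population came from separate sorts, so the p-values measure the spread between these arrays, which may be technical.

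Kinesins are motor proteins that use ATP to move along microtubules or to take their ends apart. Mitotic kinesins separate the spindle poles, align chromosomes and complete cytokinesis, and most of them are made in G2 and mitosis and lost afterwards, so that their RNA follows the cell cycle of a population. Transport kinesins carry vesicles, organelles and ciliary cargo at all stages, and several are largely restricted to neurons. In bulk RNA, fewer cells that express a gene and less RNA per expressing cell cannot be told apart.

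The values are linear intensities after background subtraction, and those below a floor of 32.7, the size of the table's first percentile, were set to the floor before taking log2. Each array had 16320 to 16474 genes over that floor. Of 7 epithelial markers, 6 (EPCAM, its older row TACSTD1, KRT8, KRT18, KRT19 and CDH1) were above the floor on all 12 arrays. The endothelial markers PECAM1, CDH5 and VWF and the pan-leukocyte marker PTPRC were at the floor throughout. PROM1 ranged from 4677 to 9513 on the CD133+ arrays and from 1315 to 4493 on the CD133- arrays, and was higher on every CD133+ array than on both CD133- arrays of its line.

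Promoter sequence was examined because many genes of G2 and mitosis share a cell cycle genes homology region (CHR) near the start site, often paired with a CCAAT box. In windows from 250 bases before to 50 bases after the start site (RefSeq, GRCh38.p14), available for 34 of the 42 members, the CHR letters TTTGAA or TTCGAA on either strand were found in 11 of 15 mitotic kinesins (73.3%), in 1 of 12 transport kinesins (8.33%) and in 1 of 7 ciliary or other kinesins (14.3%). The share among all 35116 windows was 16.4%. CCAAT on either strand, letters that do not overlap the CHR, was found in 73.3% of the mitotic, 25.0% of the transport and 34.6% of all windows, and both motifs together in 66.7% of the mitotic, 8.33% of the transport and 6.38% of all windows. A match describes the letters only. The 120 bases before the start site are shown for 5 of the 7 mitotic kinesins called higher in CD133+ cells over all lines. All 5 hold a CHR in those bases. Left out are KIF2A, with neither motif in the window, and KIF14, whose CHR lies just after the start site. Also shown are KIF22, the one mitotic member with the TTCGAA form, and KIF2C, a mitotic member with neither motif in the window. The last is KIF5B, a transport motor whose only CHR lies farther upstream. Whether a CHR goes with a change between fractions was not tested. Capitals mark CHR and CCAAT letters on either strand, so that TTCAAA and ATTGG are the same motifs read from the opposite strand.
KIF11, chr10:92593010-92593129, plus strand: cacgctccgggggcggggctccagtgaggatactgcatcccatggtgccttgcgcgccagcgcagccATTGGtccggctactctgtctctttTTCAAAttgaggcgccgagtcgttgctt
KIF15, chr3:44761674-44761793, plus strand: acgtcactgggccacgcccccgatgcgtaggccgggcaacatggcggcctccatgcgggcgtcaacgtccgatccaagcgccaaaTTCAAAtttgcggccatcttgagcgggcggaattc
KIF18A, chr11:28108157-28108276, minus strand: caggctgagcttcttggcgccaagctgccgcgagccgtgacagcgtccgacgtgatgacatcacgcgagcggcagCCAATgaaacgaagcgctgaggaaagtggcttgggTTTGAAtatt
KIF23, chr15:69414229-69414348, plus strand: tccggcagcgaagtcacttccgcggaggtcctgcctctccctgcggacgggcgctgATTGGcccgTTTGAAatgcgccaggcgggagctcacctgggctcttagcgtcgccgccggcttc
KIF4A, chrX:70289984-70290103, plus strand: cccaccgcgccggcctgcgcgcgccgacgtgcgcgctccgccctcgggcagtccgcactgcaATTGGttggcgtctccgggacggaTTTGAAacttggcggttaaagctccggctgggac
KIF22, chr16:29790631-29790750, plus strand: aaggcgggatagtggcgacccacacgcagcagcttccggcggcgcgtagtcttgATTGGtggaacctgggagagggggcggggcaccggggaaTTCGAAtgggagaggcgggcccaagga
KIF2C, chr1:44739717-44739836, plus strand: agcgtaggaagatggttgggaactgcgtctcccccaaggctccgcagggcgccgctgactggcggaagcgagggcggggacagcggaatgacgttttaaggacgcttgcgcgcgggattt
KIF5B, chr10:32056426-32056545, minus strand: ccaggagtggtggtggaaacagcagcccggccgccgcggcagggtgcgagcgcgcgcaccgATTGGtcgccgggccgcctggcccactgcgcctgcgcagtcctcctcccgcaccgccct
KIF11, KIF18A, KIF23, KIF4A and KIF22 hold both motifs in the bases shown, and KIF15 holds a CHR alone. KIF20A, KIF2A and KIF2B were the other mitotic members without a CHR in the window.

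The mitotic group was the best measured. Of its 15 members, 12 were above the floor on all 12 arrays: KIF2A, KIF2C, KIF4A, KIF11, KIF14, KIF15, KIF18A, KIF20A, KIF20B, KIF22, KIF23 and KIFC1. KIF4B was above the floor on 5 arrays, and KIF18B and KIF2B were at the floor on all 12. Of the 17 transport kinesins, 8 were above the floor on all arrays (KIF1B, KIF1C, KIF3B, KIF5B, KIF13B, KIF16B, KIF21A and KIFC2), 3 were so on some (KIF3C, KIF13A and KIFC3), and KIF1A, KIF3A, KIF5A, KIF5C, KIF17 and KIF21B were at the floor on all. KIF1A, KIF5A, KIF5C and KIF17 are mainly neuronal motors. Of the 10 ciliary or other kinesins, KIF24, a kinesin of the centriole, was above the floor on all arrays, KIF6, KIF7, KIF9, KIF12, KIF26A and KIF26B on some, and KIF19, KIF25 and KIF27 on none. Tests covered every gene exceeding the floor on 2 or more arrays, namely 13 mitotic, 11 transport and 7 ciliary or other kinesins, and 20147 genes in all.

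**Figure D1:**
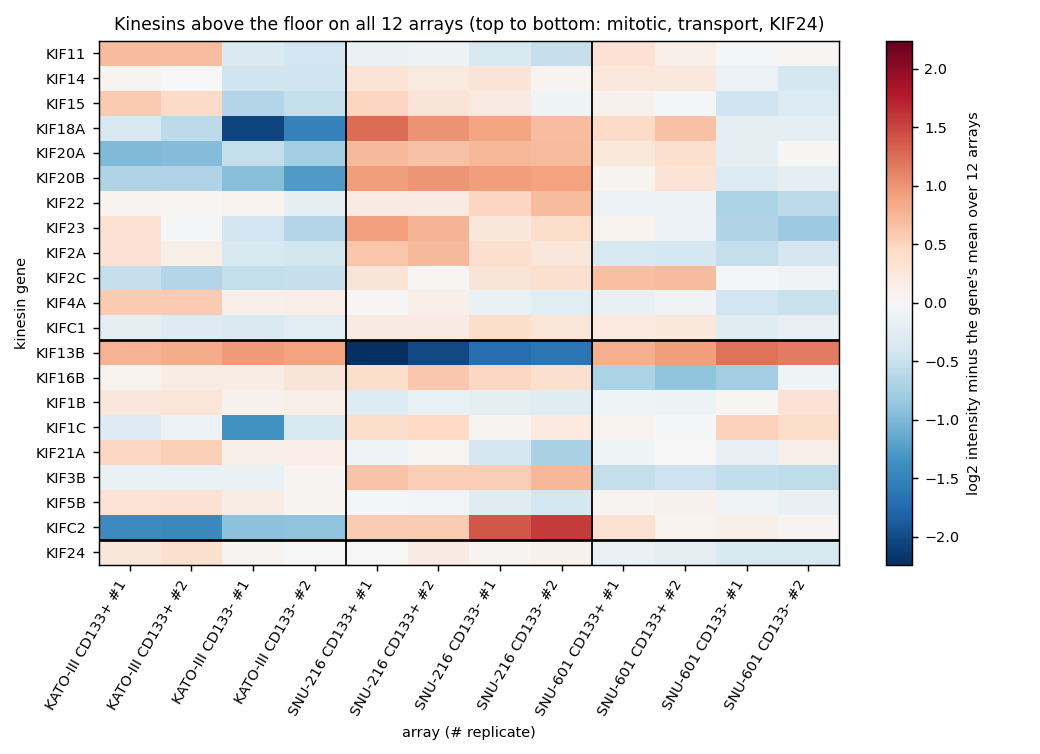
Each row is one of the 21 kinesins above the floor on all 12 arrays and each column an array, and the colour gives the log2 intensity minus the gene's own mean over the 12 arrays; vertical lines separate the cell lines and horizontal lines the groups. Most mitotic rows are paler or bluer on the CD133- arrays of KATO-III and SNU-601, while KIF13B and KIFC2 differ mainly between lines.

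Over the 3 lines together, mitotic kinesins were higher in CD133+ cells. With the cell line as a block, 7 of 13 tested mitotic kinesins were called higher (KIF11, KIF14, KIF15, KIF18A, KIF23, KIF2A and KIF4A) and 0 lower, where 2.62% of all tested genes were called higher and 2.11% lower (limma, adjusted p under 0.05, n = 6 arrays per fraction). Their median log2 change was 0.35, against -0.01 over all tested genes. Of 11 transport kinesins, KIF5B was called higher and 0 were called lower, with a median of -0.03, and none of the 7 ciliary or other kinesins was called, with a median of 0.02. At an unadjusted p under 0.05 the counts higher and lower were 8 and 0 for the mitotic, 3 and 2 for the transport and 0 and 0 for the ciliary or other kinesins, and 2312 and 2629 over all tested genes. The 6 mitotic members without a call lay between -0.10 (KIF4B) and 0.31 (KIF20B, adjusted p = 0.0597) on the log2 scale. These calls treat the arrays as independent: when both arrays of a population were first averaged, the unadjusted p of the 8 called kinesins was 0.00983 to 0.156 and each adjusted p came to 0.796. A random block for population gave adjusted p of 0.191 to 0.329, so that no call over the lines held in either fit. The 8 called kinesins were picked on these same arrays. A gap between their fractions is therefore no separate support, and the share of all genes with such a gap was not counted.

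KIF23, the motor of the centralspindlin complex that bundles the central spindle before cytokinesis, rose in every line. Its intensity was 1422 and 1087 on the CD133+ arrays against 830 and 713 on the CD133- arrays of KATO-III, 2119 and 1896 against 1340 and 1498 in SNU-216, and 1179 and 1025 against 701 and 639 in SNU-601. In each line both CD133+ arrays lay above both CD133- arrays. The log2 change over all lines was 0.64 (SE 0.089, 1.56-fold, limma adjusted p = 0.00741), and it was called in each line, at 0.69 in KATO-III, 0.50 in SNU-216 and 0.72 in SNU-601. KIF4A, a chromokinesin that limits microtubule growth in the midzone, read 1849 and 1842 against 1324 and 1358 in KATO-III, 1246 and 1345 against 1101 and 1029 in SNU-216, and 1096 and 1158 against 909 and 870 in SNU-601. Again the fractions did not overlap in any line. The change was smaller, 0.36 (SE 0.0586, 1.28-fold, adjusted p = 0.0128), with 0.46, 0.28 and 0.34 in the same order of lines, each of them called. KIF23 and KIF4A kept their calls over all lines without any one array, and KIF4A those within each line. Neither call over all lines held once both arrays of a population were averaged (limma adjusted p = 0.796 for each). The KIF23 call in SNU-216 was lost without any one of the 4 SNU-216 arrays (adjusted p up to 0.141) and that in SNU-601 without CD133+ replicate 1 or CD133- replicate 2 (up to 0.0613). KIF4B, a near-identical copy of KIF4A whose probe may share signal with it, read 5.45 and 8.85 against 37.3 and 17.0 in KATO-III, 24.4 and 20.6 against 31.2 and 36.3 in SNU-216, and 13.1 and 41.6 against 34.1 and 47.5 in SNU-601, near or below the floor throughout and called in no comparison. KIF18B, which shortens astral microtubules, reached at most 28.4 on any array, and KIF2B, a depolymerase, at most 14.3, both below the floor.

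KIF11, KIF15 and KIF18A had their largest change in KATO-III. KIF11, the plus-end motor that pushes spindle poles apart and the target of antimitotic inhibitors, read 2333 and 2298 against 1143 and 1053 in KATO-III, 1290 and 1315 against 1125 and 995 in SNU-216, and 1770 and 1561 against 1396 and 1449 in SNU-601. The fractions did not overlap in any line, but the gap in KATO-III was much wider. The log2 change was 1.08 in KATO-III (SE 0.0776, 2.11-fold, adjusted p = 1.24e-05), 0.30 in SNU-216 (adjusted p = 0.0187) and 0.22 in SNU-601 (adjusted p = 0.0869), and the changes differed between lines (interaction adjusted p = 0.000505). KIF15, which can keep a spindle bipolar when KIF11 is blocked, read 1091 and 979 against 461 and 501 in KATO-III, 1004 and 883 against 829 and 676 in SNU-216, and 772 and 705 against 533 and 584 in SNU-601. All CD133+ arrays were above the CD133- arrays of their line, by 1.10 on the log2 scale in KATO-III (SE 0.114, 2.15-fold, adjusted p = 8.98e-05), 0.33 in SNU-216 (adjusted p = 0.0612) and 0.40 in SNU-601 (adjusted p = 0.044, interaction adjusted p = 0.00693). KIF18A, which damps chromosome movement at the metaphase plate, was dimmest in KATO-III, with 148 and 126 against 45.2 and 65.6, and read 449 and 375 against 349 and 305 in SNU-216 and 252 and 296 against 162 and 164 in SNU-601. Its change was the largest of any kinesin in KATO-III, 1.32 (SE 0.189, 2.50-fold, adjusted p = 0.000569), and was 0.33 in SNU-216 (adjusted p = 0.25) and 0.74 in SNU-601 (adjusted p = 0.0284), with an interaction adjusted p of 0.0378. Over all lines the log2 changes were 0.53 for KIF11 (adjusted p = 0.0407), 0.61 for KIF15 (adjusted p = 0.0291) and 0.80 for KIF18A (adjusted p = 0.0289). KIF18A lost its call over all lines without any one of the 4 KATO-III arrays (adjusted p up to 0.0733), KIF15 without any of these or without SNU-216 CD133+ replicate 1 or CD133- replicate 2 (up to 0.0759), and KIF11 without any array other than SNU-601 replicate 2 of either fraction (up to 0.0989). Within SNU-601, the KIF15 call was lost in 10 of 12 fits without one array (up to 0.197) and the KIF18A call without any one of the 4 SNU-601 arrays (up to 0.141). The KIF11 call in SNU-216 was lost without either CD133+ array or CD133- replicate 2 (up to 0.123).

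KIF14, KIF2A and KIF5B had smaller changes over all lines. KIF14, a kinesin of the midbody that acts with citron kinase, read 1268 and 1195 against 893 and 892 in KATO-III, 1499 and 1400 against 1475 and 1262 in SNU-216, and 1417 and 1422 against 1110 and 926 in SNU-601. The fractions overlapped in SNU-216 only. The log2 change over all lines was 0.35 (SE 0.0862, adjusted p = 0.0452). KIF2A, a depolymerase at spindle poles, read 2843 and 2505 against 1785 and 1711 in KATO-III, 3521 and 3778 against 2965 and 2713 in SNU-216, and 1770 and 1745 against 1579 and 1766 in SNU-601, where the fractions overlapped. Its change over all lines was 0.35 (SE 0.086, adjusted p = 0.0433) and differed between lines, with 0.61 in KATO-III, 0.36 in SNU-216 and 0.07 in SNU-601 (interaction adjusted p = 0.0115). KIF5B, the ubiquitous heavy chain of conventional kinesin, was the one transport motor called over all lines. It read 2531 and 2572 against 2296 and 2127 in KATO-III, 1986 and 1963 against 1690 and 1566 in SNU-216, and 2142 and 2197 against 1947 and 1831 in SNU-601, without overlap in any line. Its change was 0.23 (SE 0.0505, 1.17-fold, adjusted p = 0.0321) and was called in each line, at 0.21, 0.28 and 0.20. Leaving out 1 array ended the call over all lines for KIF14 in 10 of 12 fits, for KIF2A in 9 and for KIF5B in 9, with adjusted p up to 0.111, 0.104 and 0.0801. The KIF5B call in SNU-601 was lost in 8 of 12 such fits (up to 0.197) and that in KATO-III without either CD133+ array or CD133- replicate 2 (up to 0.11). The KIF2A call in SNU-216 was lost without replicate 2 of either fraction (up to 0.0642), and the KIF14 call in SNU-601 without CD133- replicate 2 (0.0545).

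**Figure D2:**
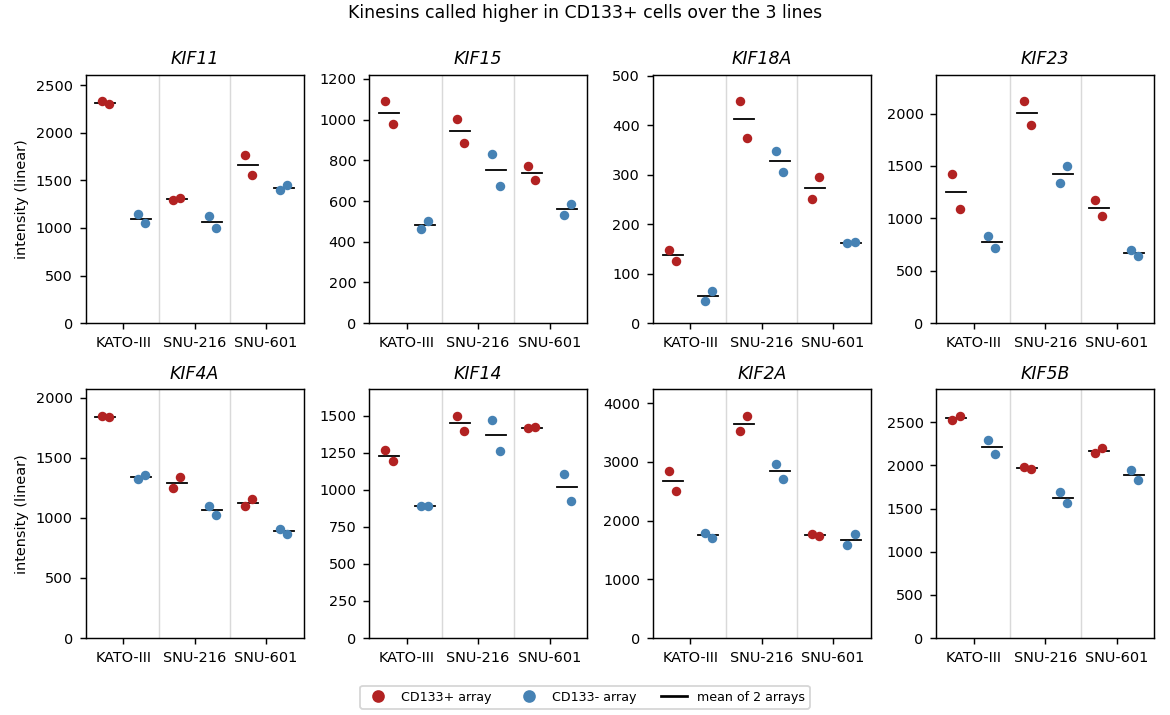
Points are the linear intensities of the 12 arrays for the 8 kinesins called higher in CD133+ cells over all lines, by cell line, with red for CD133+ and blue for CD133- arrays and a line at the mean of the 2 arrays; each panel has its own scale starting at 0. The fractions do not overlap in any line except for KIF14 in SNU-216 and KIF2A in SNU-601. The genes were picked by calls on these same arrays, so the gap is no separate support.

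Read within each line, on the same arrays, the counts of mitotic kinesins called were as follows; the difference between lines was tested for each gene and not for the group. In KATO-III 8 of 13 were called higher and 1 lower, with a median log2 change of 0.46, where 18.7% of all tested genes were called higher and 20.6% lower. In SNU-601 it was 10 of 13 higher and 0 lower, with a median of 0.44, against 8.59% and 7.78% of all genes (0 of 13 were lower at an unadjusted p under 0.05 too). In SNU-216 it was 4 higher (KIF11, KIF23, KIF2A and KIF4A) and 1 lower (KIF22), with a median of 0.09, against 14.6% and 14.0%. The median over all tested genes was 0 in each line. Without one SNU-216 array the SNU-216 count called higher was as low as 1 (without CD133+ replicate 2 or CD133- replicate 2), and without one SNU-601 array the SNU-601 count was 5 to 7. The change differed between lines for 8 of the 13 mitotic kinesins (KIF11, KIF15, KIF18A, KIF20A, KIF22, KIF2A, KIF2C and KIFC1), where 44.4% of all tested genes did; for the other 5, among them KIF23 (interaction adjusted p = 0.609) and KIF4A (0.22), the test did not pass the threshold.

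Among 7 markers of cycling cells, 4 were called higher in CD133+ cells and 1 lower in KATO-III (18.7% and 20.6% of all genes), 0 higher and 1 lower in SNU-216 (14.6% and 14.0%), and 6 higher and 0 lower in SNU-601 (8.59% and 7.78%). They were MKI67, CCNB1, CCNB2, CDC20, CCNA2, AURKA and PLK1, all above the floor on each array. MKI67 was called in no line, with -0.31 in KATO-III, -0.16 in SNU-216 and 0.01 in SNU-601. AURKA and PLK1 are also counted among the partners of mitotic kinesins below. The summed intensity of the 7 markers was 33250 to 33614 on the CD133+ arrays and 29421 to 31047 on the CD133- arrays of KATO-III, 43317 to 46139 and 46486 to 47031 in SNU-216, and 39964 to 40846 and 28066 to 28278 in SNU-601. Bright markers dominate that sum: CDC20 read 7747 to 14840 and MKI67 59.1 to 241.5. What part a different share of cycling cells had in the kinesin changes was not tested.

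The changes of KIF20A, KIF22, KIF2C and KIFC1 also differed between lines. KIF20A and KIF22 had calls of opposite sign in different lines, while KIF2C and KIFC1 were called in SNU-601 alone. KIF2C, the centromeric depolymerase that corrects faulty attachments, read 3119 and 3189 against 1893 and 1844 in SNU-601, 2377 and 1998 against 2393 and 2519 in SNU-216, and 1367 and 1247 against 1350 and 1374 in KATO-III. The fractions were well apart in SNU-601 alone. The log2 change there was 0.76 (SE 0.079, 1.69-fold, adjusted p = 0.000652), beside -0.17 in SNU-216 (adjusted p = 0.151) and -0.06 in KATO-III (adjusted p = 0.625), with an interaction adjusted p of 0.000379. KIFC1, the minus-end motor that focuses spindle poles and clusters extra centrosomes, had mean intensities of 6053 ± 58.0 and 4422 ± 179 (SD, n = 2) in the CD133+ and CD133- fractions of SNU-601, a change of 0.45 (adjusted p = 0.000867). In SNU-216 they were 5897 ± 63.7 and 6513 ± 350 (SD, n = 2), and in KATO-III 4355 ± 151 and 4241 ± 129 (SD, n = 2). The changes of -0.14 in SNU-216 (limma adjusted p = 0.0708) and 0.04 in KATO-III (0.645) were not called (interaction adjusted p = 0.00057). KIF22, a chromokinesin that pushes chromosome arms outward, rose by 0.52 in SNU-601 (2211 ± 6.78 against 1542 ± 96.8, adjusted p = 0.00915) and fell by 0.40 in SNU-216 (2749 ± 31.2 against 3632 ± 404, adjusted p = 0.0174), with 0.11 in KATO-III (interaction adjusted p = 0.00243). KIF20A, which carries Aurora B to the central spindle, rose by 0.38 in SNU-601 (3051 ± 192 against 2343 ± 260, adjusted p = 0.0214) and fell by 0.33 in KATO-III (1256 ± 9.84 against 1586 ± 176, adjusted p = 0.0179), with -0.04 in SNU-216 (interaction adjusted p = 0.00509). The fall of KIF20A in KATO-III lost its call without either CD133+ array or CD133- replicate 1, and the fall of KIF22 in SNU-216 without either CD133+ array or CD133- replicate 2 (adjusted p up to 0.126 and 0.122). The rise of KIF20A in SNU-601 lost its call without CD133+ replicate 2 or CD133- replicate 1 (up to 0.121), and that of KIF22 without CD133- replicate 1 (0.0605). KIF20B, a cytokinesis kinesin, rose by 0.43 in KATO-III (adjusted p = 0.0101) and by 0.44 in SNU-601 (adjusted p = 0.0234), and its change of 0.05 in SNU-216 was not called, but the test between lines did not pass the threshold (interaction adjusted p = 0.0907). The KIF20B call was lost in KATO-III without CD133- replicate 2 (0.0605) and in SNU-601 without CD133+ replicate 2 or either CD133- array (up to 0.133).

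**Figure D3:**
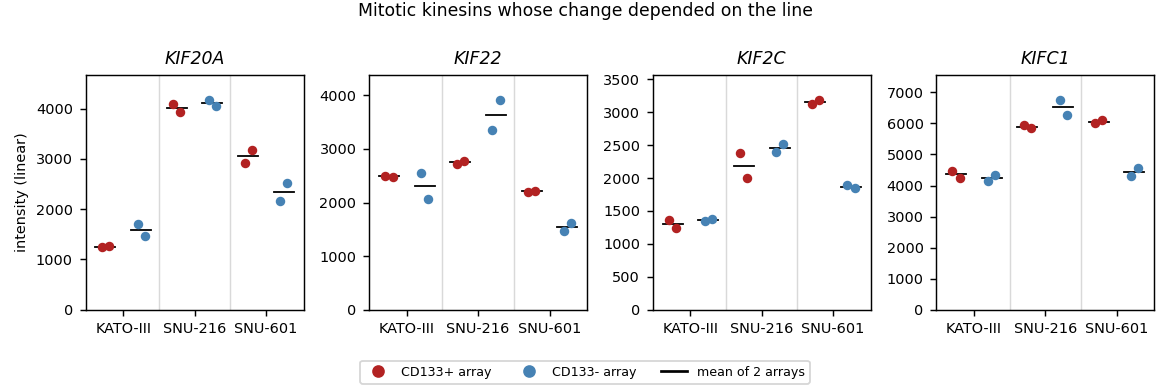
Points are the linear intensities of the 12 arrays for KIF20A, KIF22, KIF2C and KIFC1 by cell line, red for CD133+ and blue for CD133- arrays, with a line at the mean of the 2 arrays and scales starting at 0. In SNU-601 all 4 genes are higher on both CD133+ arrays. KIF22, KIF2C and KIFC1 are lower on both CD133+ arrays of SNU-216, and KIF20A on those of KATO-III. Of these falls only those of KIF22 and KIF20A were called.

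Transport kinesins were called in both directions. In KATO-III 2 of 11 were called higher and 1 lower (median log2 change -0.10), against 18.7% and 20.6% of all tested genes, in SNU-216 3 higher and 3 lower (median 0.02), against 14.6% and 14.0%, and in SNU-601 2 higher and 1 lower (median 0), against 8.59% and 7.78%. The KATO-III median was 0.03 over the 8 transport kinesins above the floor on all arrays. KIFC2, a minus-end motor described mainly in neurons, read 510 and 500 against 722 and 726 in KATO-III, 2013 and 2015 against 3593 and 4015 in SNU-216, and 1724 and 1438 against 1487 and 1422 in SNU-601. It was lower on both CD133+ arrays in KATO-III and SNU-216, and the fractions overlapped in SNU-601. It fell by 0.52 in KATO-III (SE 0.0837, adjusted p = 0.00114) and by 0.92 in SNU-216 (SE 0.0837, adjusted p = 9.05e-05), with 0.11 in SNU-601 (adjusted p = 0.442, interaction adjusted p = 0.000455). KIF13B, a vesicle motor that also binds cell polarity proteins, read 1204 and 1259 against 1367 and 1319 in KATO-III, 149 and 175 against 217 and 227 in SNU-216, and 1232 and 1347 against 1636 and 1581 in SNU-601, lower on the CD133+ arrays of every line. The fall was called in SNU-216 (-0.46, adjusted p = 0.0029) and SNU-601 (-0.32, adjusted p = 0.0285), and the change was -0.13 in KATO-III (adjusted p = 0.277) and -0.30 over all lines (adjusted p = 0.0518). In SNU-601 that call was lost without CD133+ replicate 1 or either CD133- array. The share of all genes lower on both CD133+ arrays in every line was not counted.

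KIF21A, a kinesin-4 that restrains microtubule growth at the cell cortex, read 1238 and 1294 against 980 and 987 in KATO-III, 849 and 912 against 690 and 542 in SNU-216, and 832 and 892 against 786 and 980 in SNU-601. It was higher on the CD133+ arrays of KATO-III (0.36, adjusted p = 0.0481) and SNU-216 (0.53, adjusted p = 0.0133), and the fractions overlapped in SNU-601 (-0.03). The call in SNU-216 was lost without CD133+ replicate 2 or CD133- replicate 2, and that in KATO-III in 8 of 12 such fits. The changes of KIF3C and KIF13A rested on dim signals. KIF3C, a kinesin-2 subunit, read 67.1 and 56.3 on the CD133+ arrays of SNU-216 and 74.1 and 44.2 on those of SNU-601, while the CD133- arrays of SNU-216 (22.3 and 26.6) and SNU-601 (20.7 and 30.4) were below the floor. It was at least 1.88-fold higher in CD133+ cells of SNU-216 (adjusted p = 0.0136) and at least 1.75-fold higher in those of SNU-601 (adjusted p = 0.0375), both against the floor. In KATO-III the CD133+ arrays were below the floor (7.91 and 19.2) and the CD133- arrays just above it (41.2 and 34.2), a change of -0.20 that was not called (interaction adjusted p = 0.0294). The KIF3C call in SNU-601 was lost in 11 of 12 fits without one array, and that in SNU-216 without CD133+ replicate 1 or either CD133- array. KIF13A, an endosome motor, was above the floor in SNU-216 alone, with 47.5 and 61.1 on the CD133+ arrays and 98.2 and 77.6 on the CD133- arrays, and fell by 0.70 there (SE 0.152, adjusted p = 0.00834), a call lost without CD133+ replicate 1. Its values in the other lines were -7.22 to 8.48, so that the interaction (adjusted p = 0.0372) compares a measured change with arrays at the floor.

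The other transport kinesins, KIF1B and KIF1C, vesicle and organelle motors of the kinesin-3 family, KIF3B, the kinesin-2 subunit of intraflagellar transport, KIF16B, an early endosome motor, and KIFC3, a minus-end motor of cell junctions, were called in no line. KIF1C came to 0.63 in KATO-III (SE 0.259, adjusted p = 0.0902), 0.28 in SNU-216 and -0.44 in SNU-601. Among the 7 tested ciliary or other kinesins only KIF9, a kinesin-9, was called, in KATO-III, where 18.7% of all tested genes were called higher. It read 48.9 and 44.7 on the CD133+ arrays of KATO-III and 18.5 and 11.2 on the CD133- arrays. That is at least 1.43-fold higher against the floor (limma adjusted p = 0.00227). It was below the floor in both other lines (interaction adjusted p = 0.0161). KIF9 passed the filter only through the 2 CD133+ arrays of KATO-III, and without either of them it was not tested. Its p-values are therefore no support for a change. KIF24 had changes of 0.27, 0.01 and 0.17 in KATO-III, SNU-216 and SNU-601, none called.

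**Figure D4:**
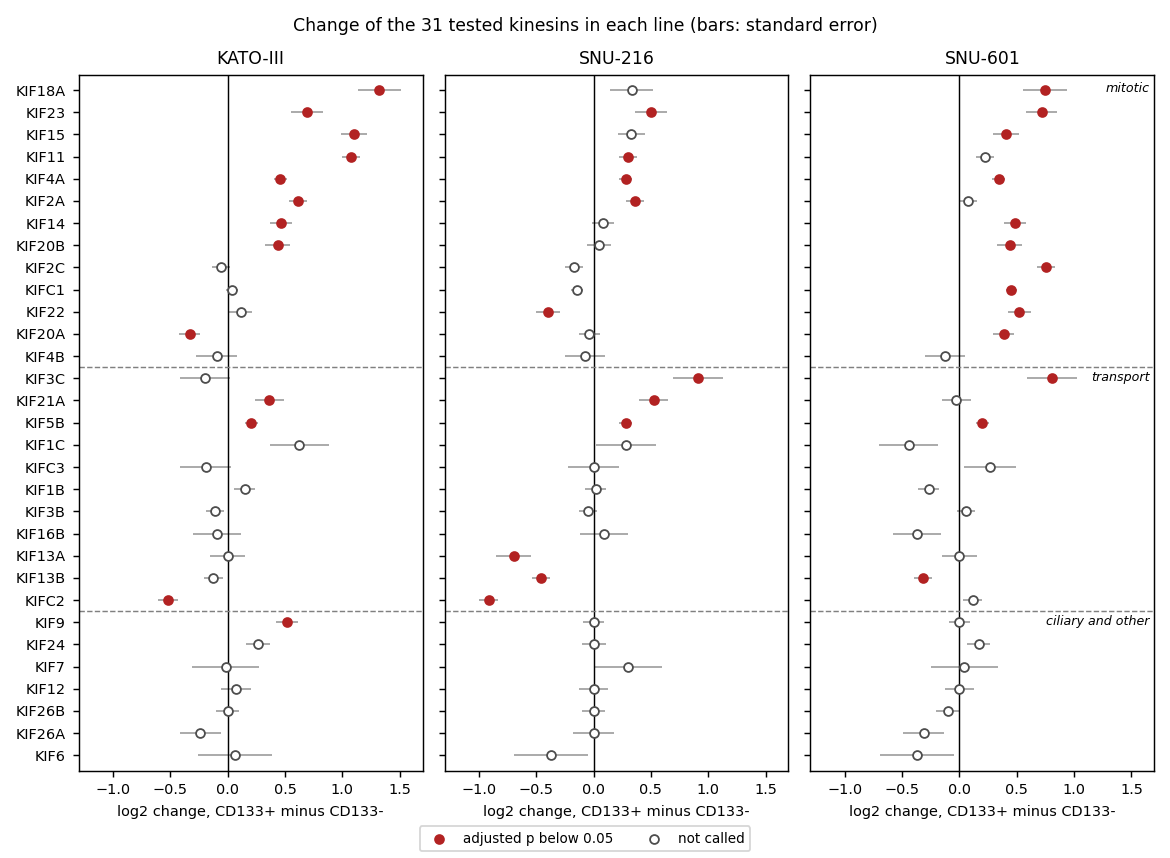
Points are the log2 changes (CD133+ minus CD133-) of the 31 tested kinesins in each line, with bars for the standard error; filled points had an adjusted p below 0.05 and dashed lines separate the mitotic, transport and ciliary or other groups. The called mitotic points are to the right of 0 except KIF20A in KATO-III and KIF22 in SNU-216, while called transport points lie on both sides.

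The study chose genes by a signal-to-noise ratio past 1 or -1; its formula is not given in the sources used here, and the ratio was computed as the difference of the fraction means over the sum of their SDs on linear intensities. With all 6 arrays of a fraction together, KIF15 at 1.09 was the only kinesin above 1 and none was below -1, where 0.558% of the 34595 genes with a value were above 1 and 0.402% below -1. The SDs in that ratio include the differences between lines. The count depended on how the lines entered: with the ratio taken within each line, from 2 arrays per fraction, and averaged over the lines, 16 kinesins were above 1 and 4 below -1, where 15.8% and 17.6% of all genes were. Of the 16, 11 were mitotic kinesins (of 15), 3 transport kinesins (of 17) and 2 ciliary or other kinesins (of 10); KIF1A and KIF27 among them were at the floor on all arrays, as was KIF19 among the 4 below -1, the others being KIF13B, KIFC2 and KIF4B.

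The level differed between lines, averaged over both fractions, for 12 of 13 mitotic, 9 of 11 transport and 5 of 7 ciliary or other kinesins, where 72.3% of all tested genes did (limma F-test, adjusted p under 0.05). Each line being 1 line, this compares these cultures. KIF13B had the largest difference, 6.79-fold higher in KATO-III and 7.60-fold higher in SNU-601 than in SNU-216 (adjusted p = 1.48e-10). KIFC2 ran the opposite way, 4.58-fold higher in SNU-216 than in KATO-III and 1.83-fold higher than in SNU-601 (adjusted p = 2.82e-09). KIF12, a kinesin-12 of epithelial tissues, read 74.8, 95.4, 79.1 and 81.6 on the KATO-III arrays and at most 2.10 on any other, at least 2.52-fold higher in KATO-III against the floor (adjusted p = 7.86e-07) with no difference called between fractions. KIF13A was at least 2.10-fold higher in SNU-216 than in either other line (adjusted p = 1.40e-05). KIF12 and KIF13A, like KIF9, are in the counts above but passed the filter only through the line where they are higher. Their arrays of the other lines were at the floor, so their p-values are no support for a line difference.

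Several mitotic kinesins also had their lowest level in KATO-III. KIF18A was 4.25-fold, KIF20B 3.55-fold and KIF20A 2.88-fold higher in SNU-216 than in KATO-III (adjusted p = 1.33e-06, 5.34e-08 and 6.33e-08 for the difference among lines). KIF4A ran the opposite way and was 1.34-fold higher in KATO-III than in SNU-216 and 1.57-fold higher than in SNU-601 (adjusted p = 1.03e-06). The kinesin-2 subunits differed as well: KIF3B was 2.22-fold higher in SNU-216 than in SNU-601 (adjusted p = 1.43e-07). KIF3A, its usual partner, was at the floor on all arrays. KIFAP3, the accessory subunit that binds both and a gene chosen after its values were seen, was below the floor on the 4 KATO-III arrays (-31.3 to -7.16) and read 611 to 781 in SNU-216 and 646 to 740 in SNU-601.

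**Figure D5:**
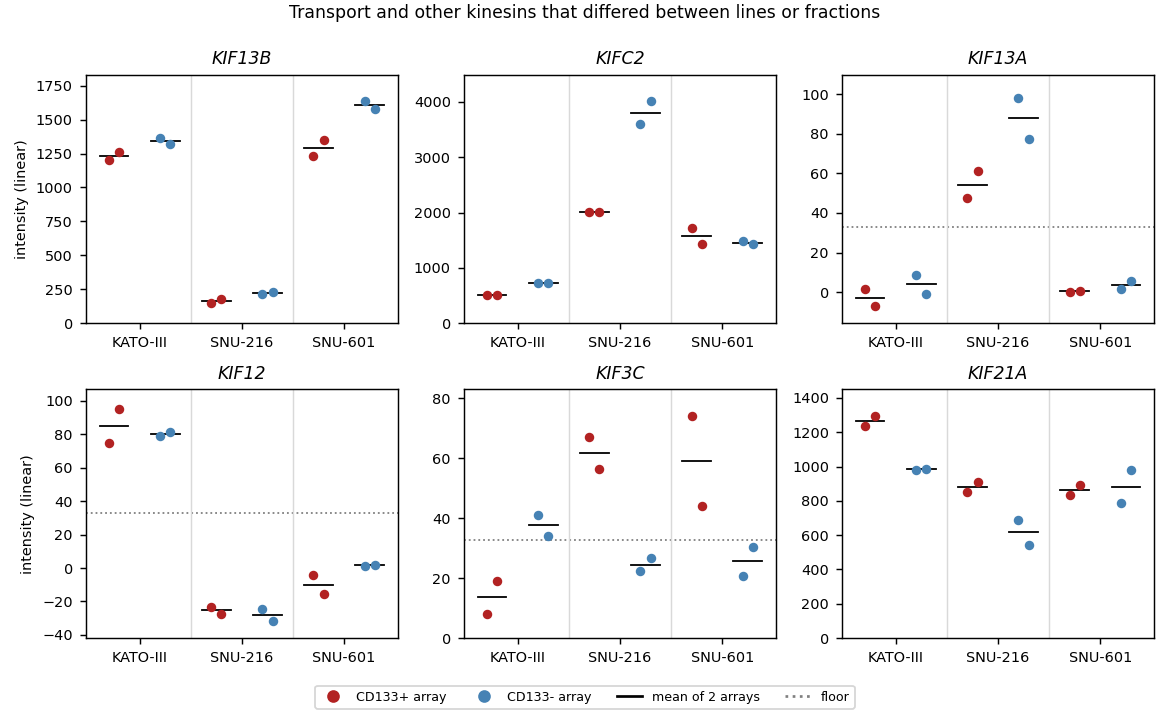
Points are the linear intensities of the 12 arrays for KIF13B, KIFC2, KIF13A, KIF12, KIF3C and KIF21A by cell line, red for CD133+ and blue for CD133- arrays, with a line at the mean of the 2 arrays and a dotted line at the floor of 32.7 in the dim panels; each panel has its own scale. KIF13B is low in SNU-216, KIF13A is above the floor in SNU-216 alone and KIF12 in KATO-III alone.

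Proteins that work with kinesins were counted for comparison. Of 19 tested partners of mitotic kinesins, such as midzone and chromosomal passenger proteins, 8 were called higher in CD133+ cells over all lines and 0 lower, against 2.62% and 2.11% of all tested genes. The counts were 14 and 0 in KATO-III (18.7% and 20.6% of all genes), 6 and 3 in SNU-216 (14.6% and 14.0%) and 13 and 0 in SNU-601 (8.59% and 7.78%). Among the 19 is CENPE, itself a mitotic kinesin under a symbol other than KIF or KIFC and so not a member here. It was called higher in KATO-III (0.71) and SNU-601 (0.53) and lower in SNU-216 (-0.48). KPNA2, an importin that holds spindle factors inactive, changed by 0.82 over all lines (adjusted p = 0.00464), and TACC3, which stabilizes spindle fibres with clathrin, by 0.78 (adjusted p = 0.0331). Of 16 tested light chains and cargo adaptors and 24 tested dynein and dynactin subunits, 0 were called over all lines by limma. In lists this short, 0 is near the 2.62% and 2.11% of all tested genes. At an unadjusted p under 0.05 the counts higher and lower were 3 and 1 for the adaptors and 4 and 3 for the dynein and dynactin subunits. They were 2312 and 2629 over all 20147 tested genes. Within lines the light chains and adaptors had 5 higher and 5 lower in KATO-III, 6 and 3 in SNU-216 and 1 and 2 in SNU-601. The dynein and dynactin subunits had 5 and 11, 6 and 5, and 2 and 3 in the same order of lines. The shares of all genes beside these were 18.7% and 20.6%, 14.6% and 14.0%, and 8.59% and 7.78%.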

How the data were processed

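Total RNA of CD133+ and CD133- cells of 3 gastric cancer lines was measured on 12 Illumina HT-12 v3 arrays, 2 per population, processed with BeadStudio per the labels. The authors deposited linear, background-subtracted intensities, quantile-normalized, with 1 row per gene symbol; 32.1% of values were at or below 0. How probes were combined per gene, and the background method, are not given in the sources used here. Values under the floor of 32.7 were set to it, which understates changes of dim genes, and log2 was taken. The number of arrays limits the precision.

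Genes exceeding the floor on 2 or more arrays (20147 of 34595) were fitted with limma 3.58.1 in R 4.3.3 (lmFit, eBayes with trend, Benjamini-Hochberg over all tested genes, threshold 0.05): a mean per population for changes within lines, interactions and line differences (6 residual degrees of freedom), and a line block plus fraction over all lines (8). The design had foreseen log2 values; the deposited values proved to be linear. Data were simulated for 11674 genes, the number above the floor on every array, with 200 changed by 1 on the log2 scale. The fit over all lines recovered 97% with 17 false calls and the KATO-III contrast 83.5% with 6. In the simulation over all lines an interaction was called for 0% of the changed genes. In the measured data it was called for 44.4% of all tested genes. The simulated figures therefore do not show how the fit over all lines behaves on these data. Replicate numbers did not pair arrays (correlations of deviations -0.0116 to 0.0276 over 15 population pairs).

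Members and lists were chosen with earlier results of these data known. Values on every array are given for members called over all lines with 1 sign, the 4 largest called changes per line, the 4 transport or other members with the widest range among those that differed between lines, and mitotic members called in no line; partner genes by count and the 2 largest called. Alternatives were other floors, an offset of 100, scalings, filters, no trend, a replicate block, averaged populations, population as a random block, and leaving out each array. RefSeq promoter windows were searched for exact letters.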

Additional observations from a re-analysis of the deposited data

Results flagged for a closer look

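By a test of the interaction of line and fraction, the change between CD133+ and CD133- cells differed between the 3 lines for 12 of 31 tested kinesins. The share of all tested genes with that call was 44.4%, so the count does not set the family apart. Those on the mitotic side were KIF2C (adjusted p = 0.000379), KIF11 (0.000505), KIFC1 (0.00057), KIF22 (0.00243), KIF20A (0.00509), KIF15 (0.00693), KIF2A (0.0115) and KIF18A (0.0378). KIFC2 (adjusted p = 0.000455), KIF9 (0.0161), KIF3C (0.0294) and KIF13A (0.0372) were the others. KIF11, KIF15, KIF18A and KIF2A changed most in KATO-III, KIF2C and KIFC1 in SNU-601, while KIF22 and KIF20A were each called higher in SNU-601 and lower in another line. KIFC2 was called lower in KATO-III and SNU-216, and KIF3C higher in SNU-216 and SNU-601. For KIF9 and for KIF13A every array of 2 lines was at the floor. KIF9 passed the filter only through the CD133+ arrays of KATO-III. No cause of these differences was tested.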

How the results depend on the processing

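No called change of a member reversed direction under any alternative run. The transport median in KATO-III, -0.10, turned to 0.03 with a floor of 100 or on all 12 arrays, that in SNU-216 (0.02) to -0.0054 without CD133+ replicate 2, and that over all lines (-0.03) to 0.0005 without KATO-III CD133- replicate 2. Each called single-member result was counted once for every alternative in which it was run and the gene was tested. Outside the fits that left out an array, 359 of these counts kept their side of the threshold and 54 lost it. Without one array in turn it was 412 and 126. Fits in which a gene failed the filter, such as KIF9 without either KATO-III CD133+ array, are in neither total. Centring the arrays or repeating the quantile normalization changed none of the 45 called single-member results. The 7 mitotic kinesins called higher over all lines became 2 with no filter on dim genes, 4 without the trend, 4 with the replicate block, 0 with averaged populations and 0 with a random block for population, and 2 to 6 without one array. The single transport call became 0 with the offset, without the trend, with the replicate block, with averaged populations and with the random block (0 to 1 without one array); transport calls lower became 1 with a floor of 100 or when genes had to be above the floor on all 12 arrays (0 to 1 without one array). With no filter, mitotic calls higher became 2 in SNU-216 and 6 in SNU-601, and the single mitotic calls lower in KATO-III and SNU-216 became 0; without one array these were 1 to 4, 5 to 10, 0 to 1 and 0 to 1. The mitotic median in SNU-216 was 0.0313 to 0.20 without one array. Transport calls higher in KATO-III became 1 with a floor of 16, no filter, no trend or the replicate block (0 to 2 without one array), and calls lower 2 with a floor of 16. In SNU-216 they were 1 to 3 without one array. In SNU-601 calls higher became 1 with a floor of 100, 0 with the offset, 0 with no filter, 1 on all 12 arrays and 1 without the trend (0 to 1 without one array), calls lower 0 with no filter or no trend (0 to 2), and the median -0.15 on all 12 arrays. Transport interactions became 5 with the offset and 1 with no filter (1 to 4). The 1 kinesin with a ratio above 1 and the 0 below -1 became 16 and 4 with ratios taken within lines and averaged; the ratio over all 6 arrays of a fraction gave 0 to 2 and 0 to 1 without one array. Values near the floor limit the dim members; the cause of the other moves was not tested.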
